A study of Homo sapiens with 17 samples.

Results

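DGCR8 encodes the RNA-binding partner of the nuclease Drosha. The 2 proteins form the Microprocessor, which cuts microRNA hairpins out of primary transcripts in the nucleus. The mRNA of DGCR8 carries hairpins of its own, MIR3618 and MIR1306. The Microprocessor is known to cut this mRNA there, which lowers the level of DGCR8 and links the amounts of the 2 partners. The cut releases the hairpins, and the cytoplasmic nuclease Dicer trims a released hairpin into a 5p and a 3p microRNA and a loop.

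The small RNAs described here were the alignments on the plus strand that lay wholly inside DGCR8 on hg19, chr22:20067755-20099400. They were divided into those inside the MIR3618 hairpin, chr22:20073269-20073356, those inside the MIR1306 hairpin, chr22:20073581-20073665, and the rest of the gene. Over 8 tables they came to 626 distinct alignments, of 14415896 distinct alignments in all: 6 in MIR3618, 68 in MIR1306 and 552 in the rest. Alignments that crossed an edge of a hairpin were counted with the rest, and made up 22 of its 552. An alignment is a start, an end and a strand, so RNAs that differ by 1 base at either end are counted apart. In GENCODE release 29, on GRCh38, both hairpins lie in exon 2 of the principal DGCR8 transcript. MIR3618, of 88 nt, is in the 5′ UTR, and MIR1306, of 85 nt, is within the coding sequence and begins 94 nt after the first base of the start codon.

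The cells were K562, an established erythroleukemia line of human origin, in which doxycycline (Dox) switches on a short hairpin RNA that targets Drosha. Cultures had 1 µg/mL Dox or, in parallel, water for 3 d (replicates 1 and 3), 13 d or 31 d (replicates 1, 2 and 3 each), which gives 8 pairs of Dox and water libraries. A further untreated library was not analysed here. All of the libraries come from cells with the hairpin construct, and the fall of Drosha itself was not checked here. Each table gives, for 1 pair, the ratio of an alignment's scaled reads in one library to those in the other. The deposited tables do not name the numerator, so values are given as numerator over denominator and no Dox direction is attached. It is assumed, and was not checked, that the 8 tables have the same orientation. A ratio of 0 means that the numerator library had no read of that alignment.

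The 3 mature microRNAs of these hairpins in RefSeq (GRCh38.p14) are printed because the alignments below are described by how their ends fall against them. Capitals mark the seed, bases 2 to 8, which pairs with targets. The seeds differ among all 3. On hg19, hsa-miR-3618 spans chr22:20073320-20073341, hsa-miR-1306-5p chr22:20073595-20073616 and hsa-miR-1306-3p chr22:20073635-20073652.
hsa-miR-3618: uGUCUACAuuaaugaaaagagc
hsa-miR-1306-5p: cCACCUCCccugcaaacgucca
hsa-miR-1306-3p: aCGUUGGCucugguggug

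Each table listed between 871027 and 3428554 alignments over the genome, of which 73.2% to 93.1% had a ratio of 0. The median log2 ratio of the alignments above 0 ran from -0.70 to 0.83 among the tables. In 3 of the tables the share at 0 depended strongly on length: from alignments of up to 17 nt to those of 25 nt or more it went from 69.4% to 92% in 3 d replicate 3, from 73.5% to 90.8% in 13 d replicate 3 and from 65.1% to 95.8% in 31 d replicate 2. Depth per library is unknown, because the columns of reads carry no library name and were not used, so no counting interval can be given. Between 71 and 140 of the alignments listed in a table were on the plus strand of DGCR8, against 2 to 29 on its minus strand.

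MIR1306 held most of the listings of DGCR8 alignments that were seen in both libraries of a pair. Listings count end forms in each table, not reads. The hairpin makes up 0.269% of the length of the gene and held 10.9% of its distinct plus-strand alignments. Of the 185 listings of DGCR8 alignments above 0, counted over the 8 tables, 122 (65.9%) were in MIR1306, 63 in the rest of the gene and 0 in MIR3618. Pieces that crossed a hairpin edge were among the 63. Of the 68 distinct MIR1306 alignments, 44 were listed in more than 1 table, 15 in all 8, and 8 were above 0 in all 8. Of the 552 in the rest of the gene, 61 were listed in more than 1 table, 1 was listed in all 8, and that 1 was also above 0 in all 8. Lengths of 20 to 24 nt made up 61.8% to 77.3% of the MIR1306 alignments of a table and 14.4% to 31.6% of those in the rest. Within the hairpin the lengths ran from 15 to 31 nt, and in the rest from 10 to 42 nt.

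The ends of the MIR1306 alignments fell at a few bases. In the 5p arm, counted as alignments whose 5′ end was within 3 nt of that of the mature microRNA, the 5′ end shared by most was base 15 of the hairpin (20073595), the first base of RefSeq miR-1306-5p. It was seen in all 8 tables, with 50 listings from 8 distinct alignments, 38 of them above 0. Base 16 was the next, with 23 listings and 8 above 0. In the 3p arm the 5′ end shared by most was base 54 (20073634), 1 base before the RefSeq start, with 65 listings, 33 above 0. Base 55, the RefSeq start of miR-1306-3p, had 56 listings and 30 above 0, and base 52 had 33 listings and 12 above 0. An RNA that starts at base 54 has a seed shifted by 1 base from the one printed for miR-1306-3p. The 3′ ends of the 3p arm were spread, mainly over 20073652 to 20073657. The RefSeq end, 20073652, had 15 listings, against 27 at 20073654, 24 at 20073655 and 19 at 20073656, so most of the 3p alignments were longer than the RefSeq form of 18 nt.

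**Figure D1:**
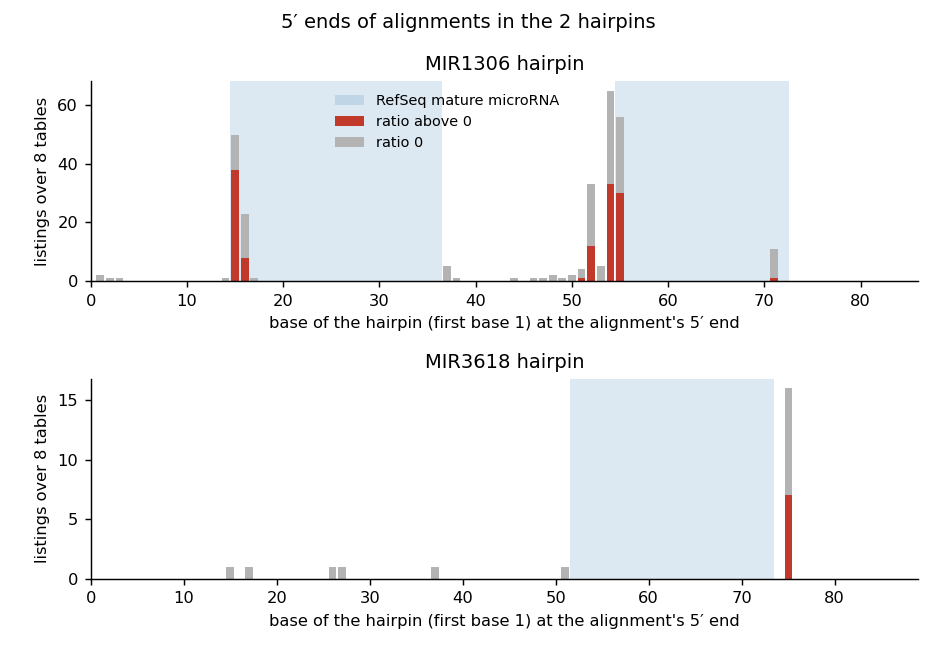
Number of listings over the 8 tables (y axis) by the base of the hairpin at which the alignment's 5′ end falls (x axis), for MIR1306 (top) and MIR3618 (bottom); red is a ratio above 0, grey a ratio of 0, and shaded spans are the RefSeq mature microRNAs. MIR1306 has its peaks at bases 15, 54 and 55, and the one peak of MIR3618, at base 75, lies past the end of the mature microRNA.

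The loop and flanks of MIR1306 were also seen, mostly without reads in the numerator. There are 18 nt between the RefSeq 5p and 3p microRNAs. An alignment of 17 nt from 20073617 to 20073633 began at the base after the 5p end and stopped at the base before the frequent 3p start at base 54. It was listed in 5 of the 8 tables, all of them at 13 d or 31 d, with a ratio of 0 in every one. Alignments starting at 20073651, inside the 3p microRNA and running past the hairpin, were 22 to 32 nt long and listed 11 times in 6 tables, once above 0.

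In MIR3618 the mature microRNA was almost absent from these tables. Its 6 alignments were each listed in 1 table (1 in 3 d replicate 3, 3 in 13 d replicate 3 and 2 in 31 d replicate 3), and all had a ratio of 0, so no fold and no test could be made. A single one of them, from 20073319 to 20073341 in 31 d replicate 3, was the mature sequence with 1 extra base at the 5′ end. Pieces that cross the edges of the hairpin were more frequent. Alignments starting at 20073343, 2 bases after the last base of miR-3618, and running out of the hairpin at its 3′ side came to 7 distinct forms and 16 listings in 6 tables, 7 of them above 0. The form listed most often, from 20073343 to 20073363, had ratios in the authors' deposited tables of 2.46 and 2.03 at 3 d, and of 0.589, 0.178 and 0 in replicates 1, 2 and 3 at 31 d. It was above 1 in both tables of 3 d and below 1 in the 3 tables of 31 d, and no table of 13 d listed it. At the 5′ side, alignments of 17 to 19 nt that ended at 20073284 were listed 9 times in 5 tables, 4 of them above 0.

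At 13 d and 31 d the ratios of MIR1306 were low, and at 3 d they were not. The median log2 ratio of the alignments above 0 was 0.94 and 1.81 in the tables of 3 d. It was -1.85, -2.68 and -4.07 in replicates 1, 2 and 3 at 13 d, and -2.68, -2.96 and -2.81 at 31 d. All 6 later tables lay below both tables of 3 d, and below their own table's median over all alignments, with log2 differences from -1.96 (13 d replicate 1) to -3.91 (13 d replicate 3). An alignment with few denominator reads cannot have a low ratio above 0. The table median was not matched to the hairpin for reads, so no conclusion is drawn from its distance.

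**Figure D2:**
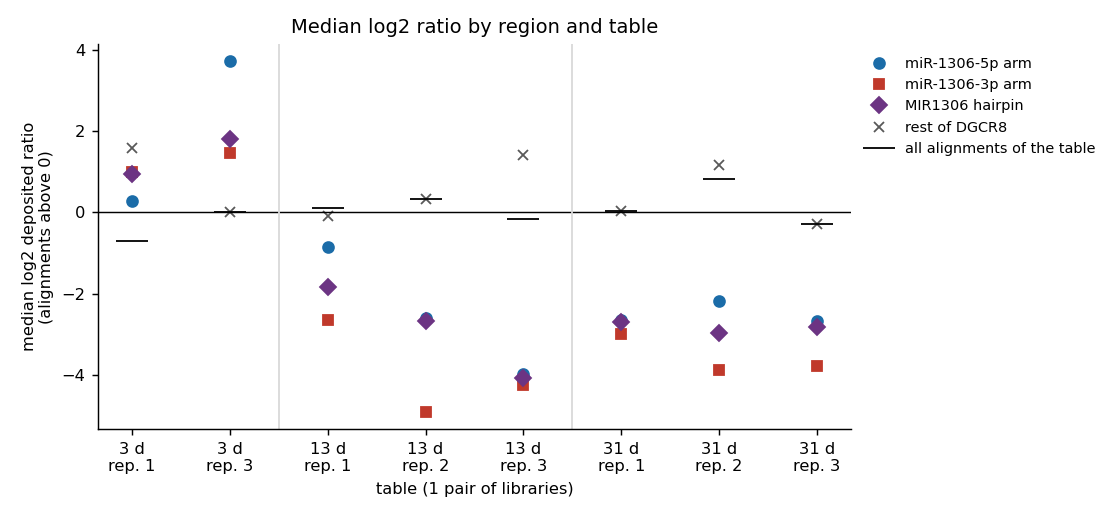
Median log2 deposited ratio of the alignments above 0 (y axis) in each of the 8 tables (x axis) for the MIR1306 hairpin, its 5p and 3p arms and the rest of DGCR8, with a bar for the median over all alignments of the table. The MIR1306 medians run from -4.07 to -1.85 in the 6 tables of 13 d and 31 d and are above 0 in both tables of 3 d.

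The regions were set in one limma fit with all strand windows of 100 nt of the genome that had at least 3 alignments above 0 in every table. The fit gives each day a mean, which is tested against 0, and p is adjusted by Benjamini-Hochberg over all 3156 rows, the 2 arms included. At 3 d, where 16.8% of the rows passed an adjusted p of 0.05 in either direction, MIR1306 was at 1.37 ± 0.67 (log2, SE, 2 tables, limma adjusted p = 0.184) and did not pass. The rows called at 3 d were 513 higher and 17 lower, the median of all rows was 0.51, and MIR1306 stood at percentile 68.5. The hairpin was lower in the tables of 13 d (-2.87 ± 0.55, limma adjusted p = 0.00477) and in those of 31 d (-2.82 ± 0.55, limma adjusted p = 0.00912). Lower rows made up 13.8% of all rows at 13 d and 7.35% at 31 d. With 13 d replicate 3 left out the 13 d value was -2.26 (limma adjusted p = 0.0515), and with 31 d replicate 3 left out the 31 d value was -2.82 (limma adjusted p = 0.0599). With both 13 d replicate 3 and 31 d replicate 2 left out, the 13 d value was -2.26 (limma adjusted p = 0.0434), while the 31 d value was -2.74 (limma adjusted p = 0.0468). With the replicate number as a block the 31 d value no longer passed (limma adjusted p = 0.0524).

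The later days differed from 3 d by more than the spread between tables. MIR1306 was lower at 13 d than at 3 d, by a log2 difference of -4.24 ± 0.86 (limma adjusted p = 0.00518). It was also lower at 31 d than at 3 d, by -4.19 ± 0.86 (limma adjusted p = 0.00814). Lower differences were called for 19.9% and 19.6% of all rows in these comparisons, so falls of this kind were frequent among the windows. Both comparisons share the tables of 3 d. Without 3 d replicate 3, which leaves 1 table at 3 d that is assumed to vary like the others, the adjusted p values were 0.0589 and 0.0626, and with the replicate block they were 0.035 and 0.0541. Between 13 d and 31 d the difference was 0.05 ± 0.77 (limma adjusted p = 0.99), and 0% of all rows passed (192 had an unadjusted p under 0.05).

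Over the 6 tables of 13 d and 31 d the MIR1306 median was -2.84 ± 0.72 (SD) and below 0 in 6 of 6. The exact two-sided sign-flip permutation test over tables gave p = 0.0312, the smallest that 6 tables allow, and 0.0515 after adjustment over 28 such tests. A single day, with 2 or 3 tables, cannot reach 0.05 in that test. The MIR1306 median was below that of the rest of the gene in 6 of 6, with log2 differences from -1.77 to -5.49 (mean difference -3.27 ± 1.33, exact sign-flip permutation p = 0.0312, adjusted p = 0.0515). A low ratio above 0 needs enough denominator reads, because an alignment with few of them and no numerator read is left out at 0. Reads were not matched between the hairpin and the rest, so no conclusion is drawn from this difference.

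Both arms had low median ratios at the later days, and the medians of the 3p arm were the lower ones. The 13 d value of the 3p arm was -3.92 ± 0.55 (limma adjusted p = 0.00239). Its 31 d value was -3.54 ± 0.55 (limma adjusted p = 0.00376). The 5p arm was at -2.47 ± 0.73 at 13 d (limma adjusted p = 0.0297), which the replicate block took to an adjusted p of 0.0807. Without 13 d replicate 3 it was -1.72 (limma adjusted p = 0.24), and without 13 d replicate 2 it was -2.40 (limma adjusted p = 0.114). At 31 d the 5p arm was at -2.49 ± 0.73 and did not pass (limma adjusted p = 0.0583), but passed with each table centred (limma adjusted p = 0.012) or with alignments of 20 to 24 nt (limma adjusted p = 0.00104). Lower rows at 31 d numbered 309 of 3156 and 299 of 1016 in these settings. Neither arm passed at 3 d, the 5p arm with 2.00 ± 0.89 (limma adjusted p = 0.15) and the 3p arm with 1.23 ± 0.68 (limma adjusted p = 0.248). Centring took the 5p value of 3 d to 2.34, and alignments of 20 to 24 nt to 2.19, both of which passed as higher (limma adjusted p = 0.0422 and 0.0318). Of all rows, 784 of 3156 and 213 of 1017 were called higher at 3 d in these settings, so such rises were frequent. The 5p medians of the 3 d tables, 0.28 and 3.71, stood far apart. In the authors' deposited tables the 5p form from 20073595 to 20073617 had a ratio of 3.48 in replicate 1 and 37.5 in replicate 3 at 3 d. The 3p median was below the 5p median in all 6 later tables, with log2 differences from -0.27 (13 d replicate 3) to -2.31 (13 d replicate 2) and a mean of -1.25 ± 0.83 (SD, exact sign-flip permutation p = 0.0312, adjusted p = 0.0515). How low a median above 0 can be depends on the denominator reads. These were not matched between the arms, so no conclusion is drawn from this difference.

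Single alignments have wider errors than the medians. The SE was the same for every DGCR8 alignment tested on a day, 1.32 for 3 d and 1.08 for 13 d and 31 d. It is a spread shared over the fit and does not measure the spread of the single alignment. All 9 alignments above 0 in every table are plotted one by one. The 8 of them in MIR1306 ran from 0.28 to 1.32 in 3 d replicate 1 and from 1.21 to 4.12 in 3 d replicate 3 (log2 ratio). In the later tables the highest was -0.84, in 13 d replicate 1, and the lowest was -9.33, in 13 d replicate 3, so the 8 were above 0 in both tables of 3 d and below 0 in each of the 6 later ones. The 22 nt form with exactly the ends of RefSeq miR-1306-5p, 20073595 to 20073616, had ratios in the authors' deposited tables of 1.22 and 17.4 for the 3 d pairs. The 13 d pairs gave 0.233, 0.147 and 0.00155, and the 31 d pairs gave 0.156, 0.0948 and 0.157. The lowest of these, in 13 d replicate 3, set much of its 13 d mean of -4.73 ± 1.08 (limma adjusted p = 0.00177). The log2 ratios behind this mean were -2.10, -2.77 and -9.33 in replicates 1, 2 and 3, a spread that the shared SE does not reflect. Without 13 d replicate 3 the mean was -2.43 and did not pass (limma adjusted p = 0.411). The 23 nt form of the 3p arm from 20073634 to 20073656 had ratios in the authors' deposited tables of 2.49 and 9.12 for the 3 d pairs. The 13 d pairs gave 0.0553, 0.0116 and 0.0327, and the 31 d pairs 0.13, 0.0285 and 0.02. Every later value was far below both values of 3 d. Of the DGCR8 alignments tested it had the lowest mean on both later days, -5.18 ± 1.08 for 13 d (limma adjusted p = 0.000523) and -4.57 ± 1.08 for 31 d (limma adjusted p = 0.00448). With each pair left out in turn, its 13 d mean ranged from -5.68 to -4.56 and did not pass in 1 of 8 fits (limma adjusted p = 0.0592). Its 31 d mean ranged from -5.39 to -4.04 and did not pass in 2 of 8 (limma adjusted p up to 0.227).

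**Figure D3:**
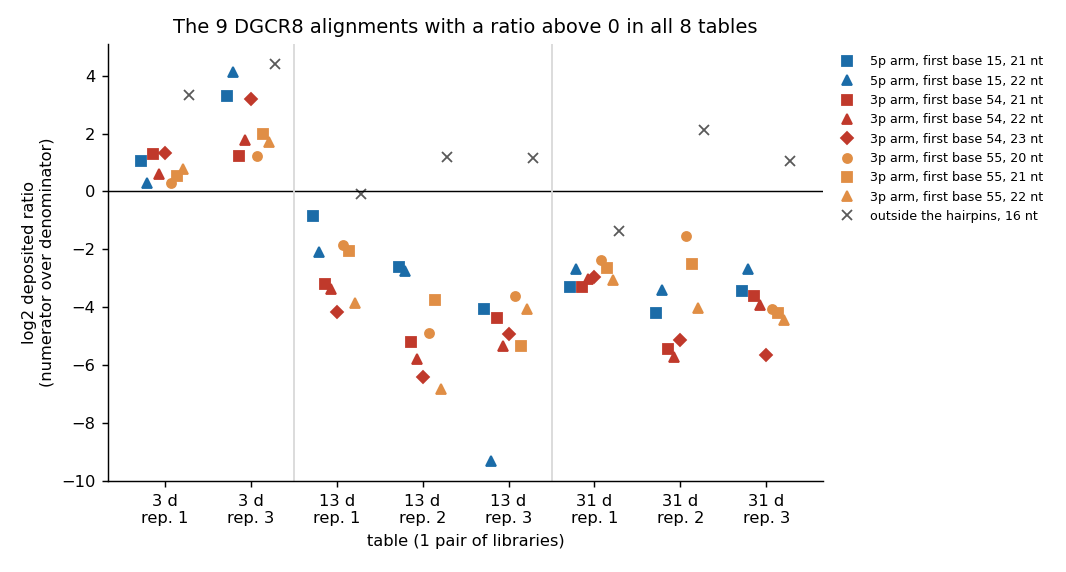
Log2 deposited ratio (y axis) of each of the 9 DGCR8 alignments with a ratio above 0 in all 8 tables (x axis); each point is 1 alignment in 1 table, with colour and marker for arm, first base and length. The 8 MIR1306 alignments lie above 0 at 3 d and below 0 at 13 d and 31 d, down to -9.33, and the alignment outside the hairpins stays near or above 0 except in 31 d replicate 1.

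Only alignments above 0 in every table of a day enter that day's test, and these were 18 DGCR8 alignments at 3 d, 10 at 13 d and 12 at 31 d, few of the 626. At 3 d, 0 of 18 passed in limma (2 had an unadjusted p under 0.05), against 3.69% of all 111976 alignments tested. At 13 d, 7 of 10 were lower, against 4.49% of 69772, and at 31 d, 5 of 12 were lower, against 1.26% of 123762. All of those called were in MIR1306, as end forms of its 2 arms measured in the same pairs of libraries. They are not separate RNAs, so these counts cannot be weighed as independent hits against the shares over all alignments. The median log2 ratio of the MIR1306 alignments tested was -4.27 at 13 d and -3.12 at 31 d, where it was 0.19 and 0.36 over all alignments tested. Reads were not matched between these sets. For the difference from 3 d, 6 of 10 were lower at 13 d, against 11.0% of 34539, and 7 of 11 at 31 d, against 6.27% of 41756. Between 31 d and 13 d, 0 of 9 passed in limma, and 0 had an unadjusted p under 0.05. The calls at 31 d were the less stable ones: with each table centred on its median 1 passed in place of 5, and leaving out replicate 1, 2 or 3 of that day left 1, 0 and 0. At 13 d, leaving out replicate 2 or 3 left 1 and 2 of the 7. Lower calls over all alignments fell in these settings too. At 31 d they went from 1565 to 694 of 123762 with centring. Without replicate 1, 2 or 3 of 31 d they were 465 of 134697, 797 of 140950 and 144 of 127701. At 13 d they went from 3130 to 278 of 78589 and 447 of 84216.

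In the 3p arm, forms that start at base 54 were set against those that start at base 55 with the same 3′ end, 20073654, 20073655 or 20073656. Averaged over the 3 shared ends, the log2 difference (base 54 minus base 55) was 0.55 and 0.43 in the 3 d pairs, -0.99, -0.64 and -0.53 in the 13 d pairs, and -0.41, -2.73 and -0.16 in the 31 d pairs. The mean was below 0 in each of the 6 later tables, but the single ends were mixed: the base 54 form was the lower one at all 3 ends in 13 d replicate 1 and 31 d replicate 2, and at 1 of 3 in 31 d replicate 3. This comparison was chosen after the values were seen and was not tested.

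Alignments at a ratio of 0 are left out of every median of log2 ratios, and in MIR1306 they too differed by day. Of the MIR1306 alignments listed, 33.3% and 18.2% had a ratio of 0 at 3 d, against 56.7%, 59.5% and 62.5% at 13 d and 61.8%, 58.8% and 52.8% at 31 d. Each share was below that of its whole table, with differences from -14.4 (31 d replicate 2) to -62.4 (3 d replicate 3) percentage points. The mean difference was -31 ± 19.2 percentage points (SD), in 8 of 8 tables (exact sign-flip permutation p = 0.00781, the smallest possible, adjusted p = 0.0515). The share at 0 also depends on how many reads the alignments have, and no set matched for reads was compared. This test therefore cannot tell MIR1306 from other RNAs with many reads. Counting all alignments with a ratio below 1, those at 0 included, MIR1306 had 40% and 22.7% at 3 d and 93.3% to 100% later. In all 6 later tables its share below 1 was above that of the whole table, by 5.94 to 15.6 percentage points (exact sign-flip permutation p = 0.0312, adjusted p = 0.0515), and in both tables of 3 d it was lower, with differences of -57 and -62.6 points. The share below 1 includes the alignments at 0 and so depends on reads too, which were not matched.

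**Figure D4:**
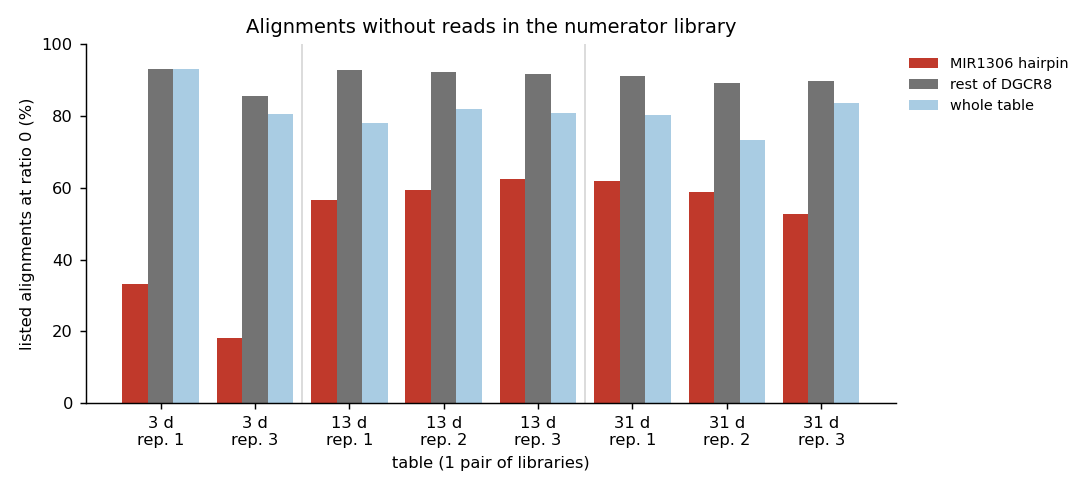
Share of listed alignments with a ratio of 0 (y axis, percent) in each table (x axis) for the MIR1306 hairpin, the rest of DGCR8 and the whole table. The MIR1306 share is the lowest of the 3 in every table, at 18.2% and 33.3% for 3 d and 52.8% to 62.5% later.

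Among alignments above 0, the rest of the gene, with any introns and edge pieces included, did not show the low ratios of the hairpin. With few denominator reads per alignment such a median could hardly be low, and reads were not compared between the hairpin and the rest. The median log2 ratio of the rest was 1.59 and 0.02 in the 3 d pairs, -0.08, 0.32 and 1.42 in the 13 d pairs, and 0.04, 1.15 and -0.28 in the 31 d pairs, with the days overlapping. No day passed: the value was 0.80 ± 0.69 for 3 d (limma adjusted p = 0.457), 0.56 ± 0.56 for 13 d (limma adjusted p = 0.553) and 0.30 ± 0.56 for 31 d (limma adjusted p = 0.764). The sign at 31 d turned, to -0.86 with alignments of 18 nt or longer and to -0.12 without 31 d replicate 2. These medians rest on 3 to 17 alignments a table, and in 4 of 8 tables the median equalled that of the whole table to within 0.0001. A change in the rest of the gene of the size of these errors would not have been detectable. The rest of the gene differed from 3 d by -0.25 ± 0.89 at 13 d (limma adjusted p = 0.883) and by -0.50 ± 0.89 at 31 d (limma adjusted p = 0.727). At 0 were 85.5% to 92.9% of its listed alignments, 9.17 ± 5.29 percentage points (SD) above the whole table on average and above it in 7 of 8 tables (exact sign-flip permutation p = 0.0156, adjusted p = 0.0515). Here too the share at 0 depends on the number of reads, which was not matched.

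The alignments counted with the rest were spread over the gene with several dense stretches. Of the 552, 35 began in the first 100 nt of the gene, and 68 began inside or within 500 nt of the stretch that holds the hairpins. Of the 500-nt bins along the gene, the one that begins 5500 nt from the first base and holds both hairpins had 120 distinct alignments of all kinds. The first bin had 49, and the last full bins, from 30000 to 31500 nt, had 22, 29 and 32. Which of these lie in exons was not analysed here, because no annotation of hg19 was at hand.

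**Figure D5:**
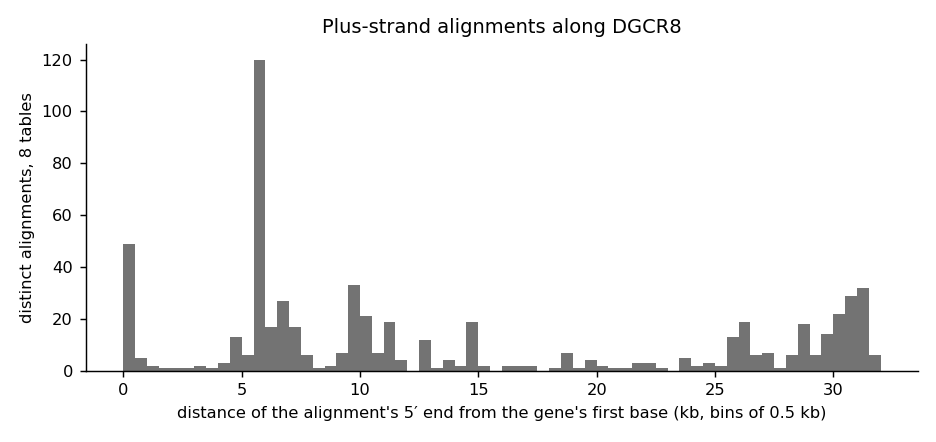
Number of distinct plus-strand DGCR8 alignments over the 8 tables (y axis) by the distance of the 5′ end from the first base of the gene (x axis, kb, bins of 0.5 kb). The highest bar, 120, holds both hairpins, and the bar at the start of the gene stands at 49.

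One RNA outside the hairpins was seen in both libraries of every pair, an alignment of 16 nt from 20074331 to 20074346, 666 nt past the end of MIR1306. Its ratios in the authors' deposited tables were 10.1 and 21.3 for the 3 d pairs. The 13 d pairs gave 0.947, 2.29 and 2.23, and the 31 d pairs gave 0.386, 4.41 and 2.08. Both values of 3 d lay above all 6 later ones, and 4 of those 6 were above 1. On the log2 scale it was at 3.88 ± 1.32 for 3 d (limma adjusted p = 0.0741), 0.76 ± 1.08 for 13 d (limma adjusted p = 0.694) and 0.61 ± 1.08 for 31 d (limma adjusted p = 0.85), so it passed on no day in this fit. Without 31 d replicate 2 it passed as higher at 3 d (limma adjusted p = 0.0356), where 4695 of 111976 alignments were called higher. Such a short sequence may match elsewhere in the genome, and the placing of reads with several matches is not described in the labels.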

How the data were processed

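Small RNA libraries were made from total RNA and cut from a gel at 20 to 40 nt, per the labels' protocols. Reads were aligned with Bowtie2 2.2.9 to hg19 (GRCh37), per the submitters' processing notes. The authors deposited a ratio per alignment for each Dox and water pair, in a table without header; the ratio is the quotient of 2 scaled read columns. In all, 32 columns (4 per table) of reads and scaled reads name no library and were not used. Starts count from 0 in the tables, and 1 was added.

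Per table and region the median log2 ratio of alignments above 0 was taken, with no pseudocount. limma 3.58.1 (R 4.3.3, robust empirical Bayes, 1 mean per day, all tables sharing the spread) was fitted on all alignments or on all windows, with Benjamini-Hochberg adjustment at 0.05, and was tested on simulated data. Exact sign-flip tests used SciPy 1.17.1. Arms were placed by the offset of the RefSeq mature microRNAs in the hairpin, and no coordinates were converted between builds. Lists of pathway genes and cell type microRNAs needed an hg19 annotation and were not used. Replicates are independent biological replicates, per the labels' protocols.

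Named alignments are the 6 per region above 0 in the most tables, those past the threshold on any day, and the commonest 5′ end of each arm. Members, lists and tests were chosen with earlier results of these data known. Alternatives tried were centring, length, window size, minimum number of alignments, days fitted alone, a replicate block, the mean in place of the median, alignments above 0 in all tables, and each pair left out.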

Additional observations from a re-analysis of the deposited data

Results flagged for a closer look

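The differences between days that passed in limma are given here; each sets the later tables against the same 2 tables of 3 d (log2 scale). For the MIR1306 hairpin they were -4.24 at 13 d and -4.19 at 31 d. For the miR-1306-5p arm they were -4.46 and -4.49, and for the miR-1306-3p arm -5.15 and -4.77. The 5p differences did not pass without 3 d replicate 3, at -2.75 (limma adjusted p = 0.185) and -2.78 (limma adjusted p = 0.169). They also did not pass with the replicate block (limma adjusted p = 0.0696 and 0.0809), nor did that of 13 d without 13 d replicate 3 (-3.71, limma adjusted p = 0.072) and that of 31 d without 31 d replicate 1 (-4.42, limma adjusted p = 0.0564). The 3p difference of 31 d was -4.54 without 3 d replicate 3 (limma adjusted p = 0.054).

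Among single alignments of the 5p arm, the one from 20073595 to 20073615 differed by -5.82 at 31 d, the one from 20073595 to 20073616 by -6.94 at 13 d and -5.12 at 31 d, and the one from 20073595 to 20073617 by -6.20 at 31 d. In the 3p arm, starting at base 54, the one from 20073634 to 20073654 differed by -5.52 and -5.38, the one from 20073634 to 20073655 by -6.04 and -5.43, and the one from 20073634 to 20073656 by -7.43 and -6.83 at 13 d and 31 d. Starting at base 55, the one from 20073635 to 20073655 differed by -4.99 at 13 d, and the one from 20073635 to 20073656 by -6.16 at 13 d and -5.07 at 31 d. These single differences were not stable. With each pair left out in turn, the one from 20073595 to 20073616 ranged from -8.85 to -4.64 at 13 d and from -7.04 to -3.20 at 31 d. Without 13 d replicate 2, 2 of 10 DGCR8 alignments passed for 13 d against 3 d, and 1632 of 39017 over all. Without 31 d replicate 1, 1 of 11 passed for 31 d against 3 d, and 653 of 46119 over all. No day has the 4 tables that a check for a table standing apart needs.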

How the results depend on the processing

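The log2 ratios of the MIR1306 hairpin kept their sign at 13 d and 31 d under every alternative run. The furthest moves came from alignments above 0 in all 8 tables, with -4.12 at 13 d, -3.70 at 31 d, and -5.42 and -4.99 for the differences from 3 d. At 31 d the MIR1306 value of -2.82 no longer passed with at least 1 alignment per window, where the value was again -2.82 (limma adjusted p = 0.0705) and more windows were tested. With the replicate block the value at 31 d was -2.82 and the difference of 31 d from 3 d was -4.20, and neither passed; the counts of single alignments were not fitted with the block. Same-numbered pairs did not deviate together over the windows (correlations of -0.58 to 0.27), so the numbers were not taken to pair the tables. With each pair left out in turn, MIR1306 ranged from -3.37 to -2.26 at 13 d, from -2.88 to -2.74 at 31 d, from -4.75 to -3.64 for 13 d against 3 d and from -4.62 to -3.76 for 31 d against 3 d. The counts of DGCR8 alignments past the threshold then ranged from 0 to 1 at 3 d, 1 to 7 at 13 d, 0 to 5 at 31 d, 1 to 7 for 13 d against 3 d, and 0 to 7 for 31 d against 3 d. With each table centred on its median the count was 1 at 3 d and 1 at 31 d. The next 2 settings were chosen after seeing the data. Centring on alignments of 20 to 24 nt gave 0 at 31 d and 0 for 31 d against 3 d. Over all alignments it called 58 of 123762 and 174 of 41756 lower. Without 13 d replicate 3 and 31 d replicate 2, whose share of alignments at 0 depended on length, the counts were 2, 4 and 1 for the days in order. Over all alignments 5301 were higher at 3 d, 1644 lower at 13 d and 961 lower at 31 d in that setting. The share in 3 d replicate 3 depended on length too. It was kept, so the 3 d values there still rest on it. The 5p arm at 31 d also passed with 18 nt or longer (limma adjusted p = 0.0094), with at least 10 alignments per window (0.0175), with alignments above 0 in all 8 tables (-3.28, 0.0326) and without either table of 3 d (0.0354), and at 13 d it did not pass with at least 1 alignment per window (0.0672). The rest of DGCR8 at 3 d passed, at 3.88 (limma adjusted p = 0.00802), where its median was that of the 1 alignment above 0 in all 8 tables. Higher rows at 3 d there numbered 387 of 1810. In that setting the rest differed from 3 d by -3.12 at 13 d (limma adjusted p = 0.0673) and by -3.27 at 31 d (limma adjusted p = 0.0519). The excess of alignments below 1 in the rest of the gene over the whole table, 4.97 percentage points (exact sign-flip permutation p = 0.0156), was 3.72 (p = 0.0547) for 18 nt or longer and 2.11 (p = 0.422) for 20 to 24 nt. Where not named here, causes were not tested. Depth is unknown, which limits every ratio from few reads.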
